A study of Mus musculus with 79 samples.

Results

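The comparison described here is that of CSDS with CTRL mice in the medial prefrontal cortex (mPFC) after a saline injection, the baseline against which ketamine effects in the same series can be read. Its members were the mPFC libraries whose labels give saline and either csds or ctrl. They numbered 20 (10 CSDS and 10 CTRL mice, 1 library per mouse) of 79 libraries in the series. All were wild-type male CD-1 mice, an outbred stock, 9 to 10 weeks old at the start of the experiment and housed in groups of 4. CSDS mice went through chronic social defeat stress (CSDS), a daily attack by a dominant resident male over 21 days. In the modified form used, they went back to their own cage mates after each attack. CTRL mice were housed in the same room and were not defeated. Both groups then lived for 4 days in a social box, an enriched arena for group tracking, received 1 intraperitoneal saline injection and were killed 7 days later. The labels do not give social rank, so each group may hold dominant and subordinate mice. For some mouse numbers the study shows the other treatment, with the same stress group, in its behavioral data. Whether both use 1 numbering is not stated, and the treatment was taken from the labels throughout. The tissue was a 1 mm punch, and in such bulk RNA fewer cells of a type and less RNA per cell cannot be told apart.

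The mPFC takes part in the regulation of emotion and of the response to stress, and repeated social defeat is a widely used rodent model of chronic stress. Stress acts on its neurons through glutamate and monoamine input and through corticosteroids, which bind the glucocorticoid and mineralocorticoid receptors and change the transcription of target genes. Neuronal firing induces immediate early genes within minutes, among them transcription factors of the Fos and Egr families, so that their mRNA reflects recent activity. Microglia, myelin and the vasculature have also been linked to chronic stress.

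Total counts were between 15829538 and 34501588 in CSDS mice (median 19803540) and between 11726129 and 25809032 in CTRL mice (median 19557124), with no detectable difference in their means (permutation test, two-sided, p = 0.444). Levels are given as CPM, counts per 1e+06 counts of a library after TMM scaling. The cortical origin was checked on CPM per kilobase of gene length. Slc17a7, the vesicular glutamate transporter of cortical excitatory neurons, was between 234 and 324 in the 20 libraries, and Tbr1, a transcription factor of deep cortical layers, was between 21.3 and 37.8. Gad1, the GABA-synthesizing enzyme of interneurons, was between 32.8 and 46.2. The striatal markers Drd1 (1.51 to 4.70) and Adora2a (0.349 to 1.12) and the choroid plexus marker Folr1 (0 to 0.0746) were far lower. Mbp, a main protein of myelin, had the widest range among the markers of resident brain cells named here, from 36.7 to 348.

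No gene passed the test. Of 28993 genes, 0 were DEGs (0.0% of those tested), where a DEG has a Benjamini-Hochberg adjusted p under 0.05 in edgeR's quasi-likelihood test. The smallest adjusted p in edgeR was 0.9998, with 10 mice per group. The unadjusted p was under 0.05 for 852 genes (2.94%). CSDS mice had the higher level in 401 of them (1.38%) and the lower in 451 (1.56%). Among the 15706 genes with a mean of at least 1 CPM, 219 (1.39%) had such a p, 110 (0.7%) higher and the rest (0.694%) lower. No single gene below is a DEG in this test. The genes below are given as values with their unadjusted p from edgeR, and "higher" and "lower" refer to CSDS mice relative to CTRL mice. In 0 of the 15706 genes (0.0%) were the CSDS and CTRL values free of overlap.

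The spread between mice also bounds how large a stress effect these libraries leave room for, if mice are taken as independent. Stress was given to whole groups of 4 mice, so mice that shared a box were not independent of each other. The standard errors and intervals below do not account for this and may be too narrow. The median log2 fold change (LFC) of CSDS over CTRL was 0.00 in genes of at least 1 CPM, and the median standard error was 0.08. The 95% confidence interval of the LFC lay within ±1 in 15570 of them (99.1%) and within ±0.5 in 14081 (89.7%). Of the 219 genes with an unadjusted p under 0.05, 22 had an absolute LFC of at least 0.5, and the median was 0.25. The plot of LFC against mean level shows most genes with a large LFC at the low end of the range.

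**Figure D1:**
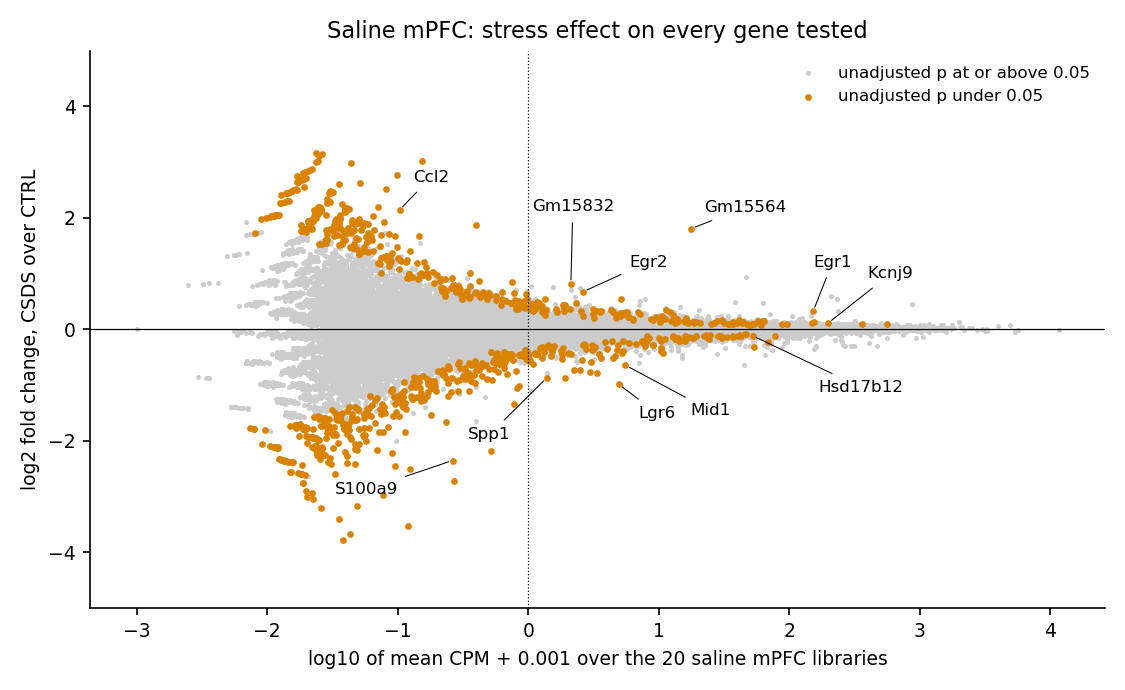
LFC of CSDS over CTRL in saline mPFC (y axis) against the log10 of the mean CPM plus 0.001 over the 20 libraries (x axis), 1 point for each of 28993 genes, with unadjusted p under 0.05 in orange and the dotted line at 1 CPM. The 2 directions are filled alike (401 higher, 451 lower), and the large LFCs are mostly left of the dotted line.

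Gm15832 had the smallest unadjusted p among genes of at least 1 CPM that were higher in CSDS mice. It is a non-coding processed transcript on chromosome 1 of GRCm38, at chr1:39547570-39552002, with no known function to give here. Its level was between 1.66 and 5.40 CPM in CSDS mice (median 2.16) and between 0.814 and 1.97 in CTRL mice (median 1.52). Every CSDS mouse was above the CTRL median and 6 were above the highest CTRL mouse. The LFC was 0.82 (SE 0.18, 95% interval 0.46 to 1.17, unadjusted p = 4.01e-05), and it stayed between 0.66 and 0.88 when each mouse was left out in turn. In DESeq2 with a term for the 5 sets of mice, Gm15832 had an adjusted p of 0.0432. The sets group mice by their numbers, each with CSDS and CTRL mice, and are no batch or social box given by the labels. The CSDS values formed a lower run up to 2.27 and a separate run of 4 mice, mice 10, 13, 15 and 18, at 3.34, 5.40, 3.49 and 3.55 CPM. The same 4 mice were the 4 highest in the ventral hippocampus (vHipp), at 3.40, 4.68, 2.66 and 4.12 CPM, where the CTRL mice were between 1.45 and 2.2. The vHipp LFC was 0.52 (SE 0.19, unadjusted p = 0.00793). The next highest CSDS mouse in the vHipp, mouse 9, had 2.18 CPM.

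Rad51ap1, at chr6:126923050-126939587, encodes a protein of DNA repair. It was between 1.80 and 3.03 CPM in CSDS mice (median 2.03) and between 1.29 and 1.97 in CTRL mice (median 1.63). All 10 CSDS mice were above the CTRL median, with an LFC of 0.38 (SE 0.11, unadjusted p = 0.00125). Rel, a subunit of NF-kB, had a median of 5.48 CPM in CSDS and 4.57 in CTRL mice, with an LFC of 0.27 (SE 0.10, unadjusted p = 0.0118). Ing5, a subunit of histone acetyltransferase complexes, had an LFC of 0.14 (SE 0.05, unadjusted p = 0.00901), from a CSDS range of 17.2 to 21.6 CPM and a CTRL range of 15.9 to 19.2. Tcof1, which encodes the nucleolar protein treacle, had an LFC of 0.13 (SE 0.04, unadjusted p = 0.00373), and Pla2g5, a secreted phospholipase, one of 0.43 (SE 0.14, unadjusted p = 0.00453). In all of these the ranges of the groups overlapped. Egr2, which was also named on this side, is described further below. The remaining genes named on this side by p or by size were transcripts with no assigned function or with a pseudogene annotation. They were Gm37412 (LFC 0.55), Gm4737 (0.54), Gm4784 (0.36), Gm45632 (0.44), Gm12312 (0.21), Gm45342 (0.49), D930036K23Rik (0.47) and Gm44644 (0.46), with unadjusted p values from 0.00277 (Gm37412) to 0.0478 (Gm44644). The counts of pseudogenes are uncertain where reads are shared with a parent gene.

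Gm15564, an antisense transcript at chr16:35966752-35983230, had the largest LFC among the higher genes of at least 1 CPM with an unadjusted p under 0.05, and its size rested on 1 mouse. CSDS mouse 8 had 182 CPM, the next highest CSDS mouse had 34.6, and the CSDS median of 3.91 was below the CTRL median of 5.32. In CTRL mice the highest value was 25.4, in mouse 24. The LFC was 1.81 (SE 0.59, unadjusted p = 0.00386) with all mice and 0.45 without mouse 8 (unadjusted p = 0.341).

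**Figure D2:**
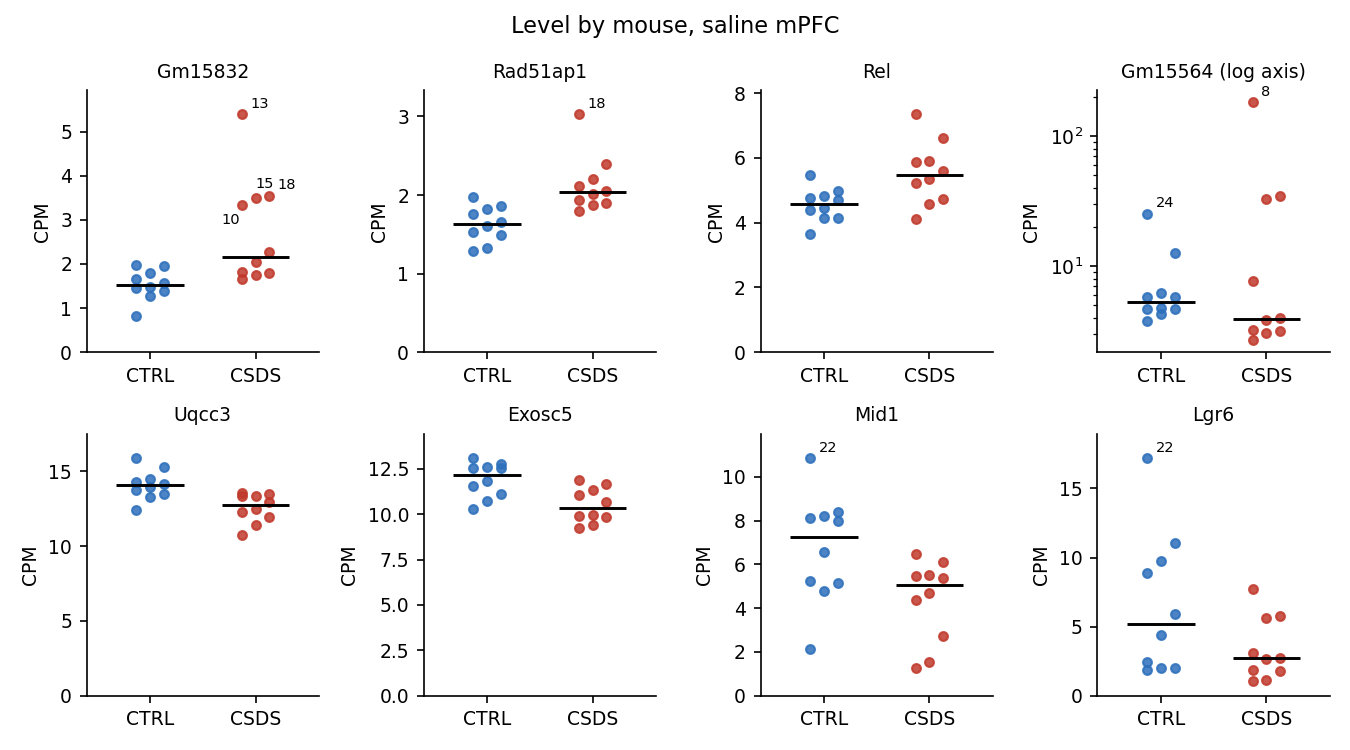
CPM of 8 genes (y axis, logarithmic for Gm15564 alone) in each of 10 CTRL (blue) and 10 CSDS (red) mice, with the median as a line and some mouse numbers printed. The groups overlap in every panel, Gm15832 has 4 CSDS mice at 3.34 CPM or more, and Gm15564 has 1 CSDS mouse at 182 CPM.

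Among the genes lower in CSDS mice, small differences in broadly expressed genes stood beside larger ones in genes of a few CPM. Uqcc3, an assembly factor of mitochondrial complex III, was between 10.7 and 13.6 CPM in CSDS mice (median 12.7) and between 12.4 and 15.9 in CTRL mice (median 14.1). All 10 CSDS mice were below the CTRL median, with an LFC of -0.17 (SE 0.06, unadjusted p = 0.00595). Exosc5, a subunit of the RNA exosome, was between 9.24 and 11.9 CPM in CSDS mice (median 10.3) and between 10.3 and 13.1 in CTRL mice (median 12.2). Its LFC was -0.18 (SE 0.07, unadjusted p = 0.00958), again with all 10 CSDS mice below the CTRL median. The same held for Snrpa1, a protein of the U2 spliceosomal particle (LFC -0.16, SE 0.06, unadjusted p = 0.00946), for Dsn1, a kinetochore subunit (LFC -0.31, SE 0.11, unadjusted p = 0.00742), and for Kif6, a kinesin motor (LFC -0.43, SE 0.14, unadjusted p = 0.00449). Hsd17b12, an enzyme of fatty acid elongation, was between 46 and 55.3 CPM in CSDS and between 50.3 and 62.5 in CTRL mice (LFC -0.12, SE 0.04, unadjusted p = 0.00545). Pnpla7, a lysophospholipase, had an LFC of -0.22 (SE 0.08, unadjusted p = 0.00836). The remaining genes of smallest p were the processed pseudogenes Gm7002 (LFC -0.55) and Gm13226 (-0.57), the antisense transcript Gm34006 (-0.52) and ENSMUSG00000063897 (-0.25), an identifier without a symbol on an unplaced scaffold.

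A group of 3 neighboring genes among the lower ones lay at the distal end of chromosome X. Mid1 encodes a microtubule-associated ubiquitin ligase and lies at chrX:169685199-170005736. The non-coding transcript G530011O06Rik lies within its span on the opposite strand, from 169975043 to 169978917, and Gm21887 follows, from 170009659 to 170019281. RefSeq lists Gm21887 as a synonym of Erdr1. Mid1 was between 1.25 and 6.49 CPM in CSDS mice (median 5.04) and between 2.12 and 10.9 in CTRL mice (median 7.26). All 10 CSDS mice were below the CTRL median, with an LFC of -0.64 (SE 0.25, unadjusted p = 0.0132). The LFCs of G530011O06Rik and Gm21887 were -0.88 (SE 0.35, unadjusted p = 0.0163) and -0.74 (SE 0.23, unadjusted p = 0.00299), and CTRL mouse 22 was the highest CTRL mouse for all 3. Without it the unadjusted p values of Mid1, G530011O06Rik and Gm21887 were 0.0403, 0.0519 and 0.0154. Of 10 tested genes from Hccs to Asmt, a stretch chosen because of the 3 genes above, 4 had an unadjusted p under 0.05 (2.94% of all genes), which that choice largely fixed. They were these 3 and Gm15726, a transcript within the span of Mid1, with means of 0.152 CPM in CSDS and 0.333 CPM in CTRL mice (LFC -1.20, SE 0.40, unadjusted p = 0.00481). The LFCs of the other genes were -0.00 for Hccs, -0.03 for BC022960, -0.21 for Gm15246, -0.25 for Gm15247, -0.64 for Gm27980 and 0.47 for Asmt, with unadjusted p values of 0.142 or more. In ketamine-treated mice the direction was the opposite for these transcripts, with mPFC LFCs of 0.40 (SE 0.26) for Mid1, 1.03 (SE 0.36) for G530011O06Rik and 0.62 (SE 0.25) for Gm21887. In the vHipp of the saline mice the LFCs of these 3 were -0.27, -0.10 and -0.56, with unadjusted p values of 0.0688, 0.737 and 0.0277. Both regions came from the same mice, so these values are not independent of those in the mPFC. Gm21887 was lowest in CSDS mouse 2 (0.726 CPM in the mPFC, 0.644 in the vHipp) and highest in CTRL mouse 22 (5.15 and 4.73). G530011O06Rik was lowest in CSDS mouse 7 (0.156 and 0.136). The reads of overlapping genes and of the near-identical copies known for this region may have been split in counting, and this was not tested.

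The largest negative LFC among genes of at least 1 CPM with an unadjusted p under 0.05 was that of Lgr6, an R-spondin receptor of the Wnt pathway at chr1:134983301-135105276. It was between 1.06 and 7.76 CPM in CSDS mice (median 2.71) and between 1.86 and 17.2 in CTRL mice (median 5.16). The ranges overlapped widely, with 7 CSDS mice below the CTRL median. The LFC was -0.99 (SE 0.40, unadjusted p = 0.0171), and without CTRL mouse 22 it was -0.69 with an unadjusted p of 0.086. Spp1 (osteopontin, LFC -0.87, SE 0.36) and the non-coding Gm47113 (LFC -0.78, SE 0.31) were also in this set. Their unadjusted p values of 0.0211 and 0.0151 became 0.0932 and 0.046 without CTRL mouse 29.

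Of 567 genes tested in the gene lists, 17 (3.0%) had an unadjusted p under 0.05, against 2.94% of all genes, and of the 508 with at least 1 CPM 11 did (2.17%), against 1.39% of all such genes. The median LFC of 22 of the 37 lists took both signs over the fits that left out 1 mouse. Among the lists, that of 24 immediate early genes had the largest positive median of the 37 lists. Egr1, Egr2 and Ier2 had an unadjusted p under 0.05, all higher in CSDS mice, and no member was lower at that p. For comparison, 1.38% of all genes were higher and 1.56% were lower at this threshold, shares that apply to each list below. A positive LFC was found in 21 of the 24 genes, against 49% of all genes tested, and the list's median LFC was 0.12, against -0.00 over all genes. Members of this list are induced together by activity, so they are not independent of each other. The lowest LFC was that of Jund, and the 3 members below 0 were Jund, Ier5 and Gadd45b.

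Egr2 encodes a zinc finger transcription factor and lies at chr10:67535475-67542188. Its level was between 1.57 and 7.71 CPM in CSDS mice (median 2.82) and between 0.890 and 3.54 in CTRL mice (median 1.73). In 9 of 10 CSDS mice it was above the CTRL median, and 3 were above the highest CTRL mouse. The LFC was 0.68 (SE 0.30, 95% interval 0.07 to 1.28, unadjusted p = 0.03). Egr1, its relative, was between 92 and 252 CPM in CSDS mice (median 168) and between 109.2 and 175 in CTRL mice (median 132.9), with an LFC of 0.33 (SE 0.15, unadjusted p = 0.0375). Ier2, a nuclear protein of the same early response, had medians of 5.47 and 4.75 CPM and an LFC of 0.29 (SE 0.14, unadjusted p = 0.0492). The ranges of the groups overlapped in all 3.

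Other known markers of activity, Fos, Arc and Npas4, did not reach this threshold. Fos was between 4.05 and 22.3 CPM in CSDS mice (median 8.85) and between 2.96 and 13.4 in CTRL mice (median 5.59), with an LFC of 0.54 (SE 0.30, unadjusted p = 0.079). Arc, which regulates AMPA receptor trafficking, had medians of 71.7 and 46.2 CPM and an LFC of 0.48 (SE 0.28, unadjusted p = 0.0938). Npas4, a neuron-specific activity-dependent factor, had medians of 13.7 and 13.5 CPM and an LFC of 0.24 (SE 0.17, unadjusted p = 0.18). CSDS mouse 15 was the highest CSDS mouse for 13 of the 24 genes, including Egr1, Egr2, Ier2, Fos, Arc and Npas4, and CTRL mouse 28 was the highest CTRL mouse for 12. Without mouse 15, 20 of 24 genes had a positive LFC, with a median of 0.07, and 0 had an unadjusted p under 0.05. Without CTRL mouse 33, 20 were positive and 0 had such a p, and without CSDS mouse 18 there were 7. With each mouse left out in turn, 20 to 22 of the 24 LFCs were positive, with medians from 0.07 to 0.16. The number at an unadjusted p under 0.05 ran from 0 to 7. Without mice 2 and 22 together, which had the highest myelin sums of their groups, 18 were positive, with a median of 0.13, and 1 had such a p.

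**Figure D3:**
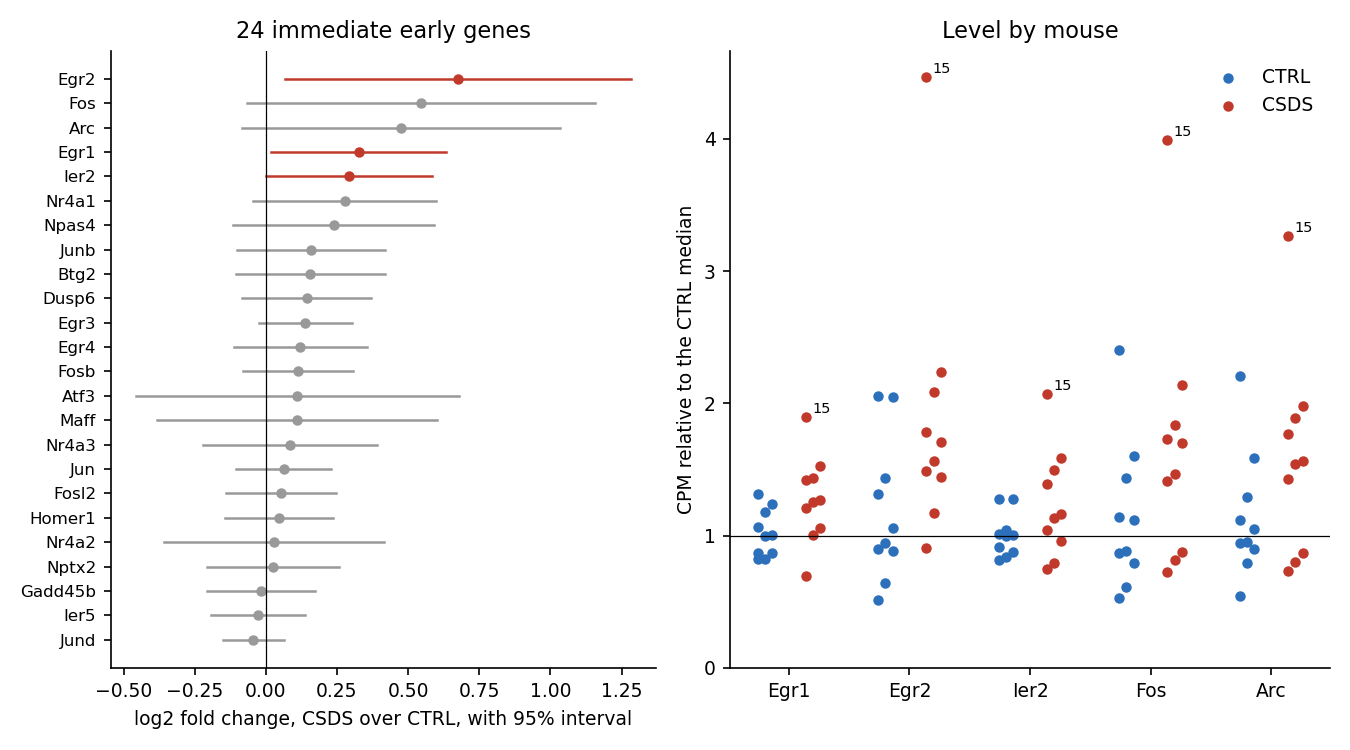
Left, the LFC of CSDS over CTRL (x axis) with its 95% confidence interval for each of 24 immediate early genes, in red where the unadjusted p was under 0.05. Right, the CPM of 5 of them relative to the CTRL median (y axis) in each CTRL (blue) and CSDS (red) mouse, with mouse 15 numbered. Of the 24 LFCs, 21 are above 0, and mouse 15 is the highest CSDS mouse in each of the 5 genes.

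A pair of promoters is printed to show the elements through which activity is known to reach such genes, the CArG box bound by SRF and the cAMP response element bound by CREB. Windows of 250 bases before the RefSeq transcript start (GRCm38.p6) were found for 19 of the 24 genes, in 26 windows. A CArG box (CC, 6 bases of A or T, GG, which reads as the same motif on both strands) was in 4 of these 26 windows, all of 1 gene, Egr2, and in 1.47% of all 32851 promoter windows of the table. The palindrome TGACGTCA was in windows of 2 genes, Btg2 and Maff, and in 1.55% of all windows. Bases further upstream and other spellings of either motif were not searched, so the other genes are not shown to lack them. Btg2, an antiproliferative early gene shown for its motif, had an LFC of 0.16 (SE 0.13, unadjusted p = 0.236). The motif letters are in capitals, 5′ to 3′ on the strand of the gene, at chr10:67537619-67537868 on the plus strand for Egr2 and at chr1:134079156-134079405 on the minus strand for Btg2.
Egr2: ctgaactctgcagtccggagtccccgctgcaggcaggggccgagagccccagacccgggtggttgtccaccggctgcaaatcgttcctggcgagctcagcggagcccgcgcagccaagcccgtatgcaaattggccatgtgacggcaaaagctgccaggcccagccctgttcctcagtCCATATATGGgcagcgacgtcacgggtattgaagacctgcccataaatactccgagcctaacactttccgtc
Btg2: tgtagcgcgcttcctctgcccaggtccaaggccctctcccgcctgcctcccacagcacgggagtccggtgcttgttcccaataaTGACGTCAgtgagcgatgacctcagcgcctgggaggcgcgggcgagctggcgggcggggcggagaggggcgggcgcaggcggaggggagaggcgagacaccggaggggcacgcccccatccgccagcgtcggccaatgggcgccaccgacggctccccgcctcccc
The capitals cover bases 72 to 63 before the start in Egr2 and bases 166 to 159 before it in Btg2. A match of letters is a description and was not tested against any binding data.

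In the list of 14 genes of corticosteroid and CRH signalling, 0 had an unadjusted p under 0.05 in either direction, and the median LFC was -0.02. The LFCs ran from -1.01 for Ucn3, which had 1 count over the CSDS and 3 over the CTRL libraries, to 0.10 for Hsd11b1. Nr3c1, the glucocorticoid receptor, was between 85.7 and 117.2 CPM in CSDS and between 76.2 and 117.3 in CTRL mice, with an LFC of 0.04 (95% interval -0.13 to 0.20). Fkbp5, a co-chaperone of this receptor and a classic target of it, had medians of 21.4 and 21.6 CPM and an LFC of -0.02 (95% interval -0.17 to 0.14). Sgk1, a kinase induced by glucocorticoids, had an LFC of -0.10 (95% interval -0.24 to 0.04). Of 24 glucocorticoid-induced genes, 1 was lower and 0 were higher at an unadjusted p under 0.05, and the median LFC was -0.04. Without CTRL mouse 22 the median was 0.0039, with 13 positive and 0 at such a p. The lower gene was Plin4, a lipid droplet protein, which was between 0.624 and 4.27 CPM in CSDS mice (median 1.72) and between 1.29 and 7.24 in CTRL mice (median 2.75). In 9 of 10 CSDS mice it was below the CTRL median (LFC -0.74, SE 0.31, unadjusted p = 0.0224). Its LFC was -0.49 without CTRL mouse 22 (unadjusted p = 0.111). In the vHipp of the same mice the Plin4 LFC was -0.70 (SE 0.25, unadjusted p = 0.00721). There CTRL mice 22 and 29 had 3.70 and 4.23 CPM, against at most 2.23 in the other saline mice. The same mice were the highest CTRL mice in the mPFC, at 7.24 and 5.94 CPM.

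Of 28 synaptic vesicle and postsynaptic genes, 22 had a positive LFC, the LFCs ran from -0.28 to 0.08 with a median of 0.02, and 0 had an unadjusted p under 0.05. The same count of 0 was found for 7 NMDA receptor subunits (median LFC 0.05), 14 AMPA and kainate receptor subunits (0.01), 7 metabotropic glutamate receptors (0.03) and 14 GABA-A receptor subunits (0.04). Grin1, the obligatory NMDA receptor subunit, was between 586 and 705 CPM in CSDS and between 563 and 669 in CTRL mice, with an LFC of 0.06 (95% interval -0.03 to 0.14). Gria1, an AMPA receptor subunit, had an LFC of -0.00 (95% interval -0.10 to 0.10). Among 19 neurotrophin and mTOR genes there were also 0, and Bdnf had an LFC of 0.02 (95% interval -0.17 to 0.21), its receptor gene Ntrk2 one of -0.01 (-0.12 to 0.10) and Mtor one of 0.04 (-0.07 to 0.15). Syn1, a synaptic vesicle phosphoprotein, had an LFC of 0.01 (95% interval -0.12 to 0.15).

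Channel, receptor and clock lists gave single genes. Of 21 potassium channel genes, 1 was higher at an unadjusted p under 0.05. This was Kcnj9, a subunit of the G protein-gated GIRK channels, between 184 and 230 CPM in CSDS mice (median 208) and between 167 and 211 in CTRL mice (median 191). Its LFC was 0.11 (SE 0.04, unadjusted p = 0.0121), with 9 of 10 CSDS mice above the CTRL median. Of 18 circadian clock genes, Tef, a PAR bZIP output factor of the clock, was higher (LFC 0.09, SE 0.04, unadjusted p = 0.0421, which stayed under 0.05 in 14 of 20 fits without 1 mouse), and 14 of the 18 LFCs were positive. No member of the lists of serotonin receptors (13 tested), dopamine and adrenergic receptors (13), opioid receptors and peptides (8), oxytocin and vasopressin genes (5 tested of 6), endocannabinoid genes (9) and heat shock and chaperone genes (25) had an unadjusted p under 0.05. In the list of 21 cholesterol synthesis genes, Pmvk, phosphomevalonate kinase, was lower (LFC -0.12, SE 0.05, unadjusted p = 0.0258, under 0.05 in 16 of 20 such fits), and in that of 17 antioxidant and NRF2 genes Gsr, glutathione reductase, was lower (LFC -0.15, SE 0.07, unadjusted p = 0.0395, under 0.05 in 8 of 20 such fits).

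**Figure D4:**
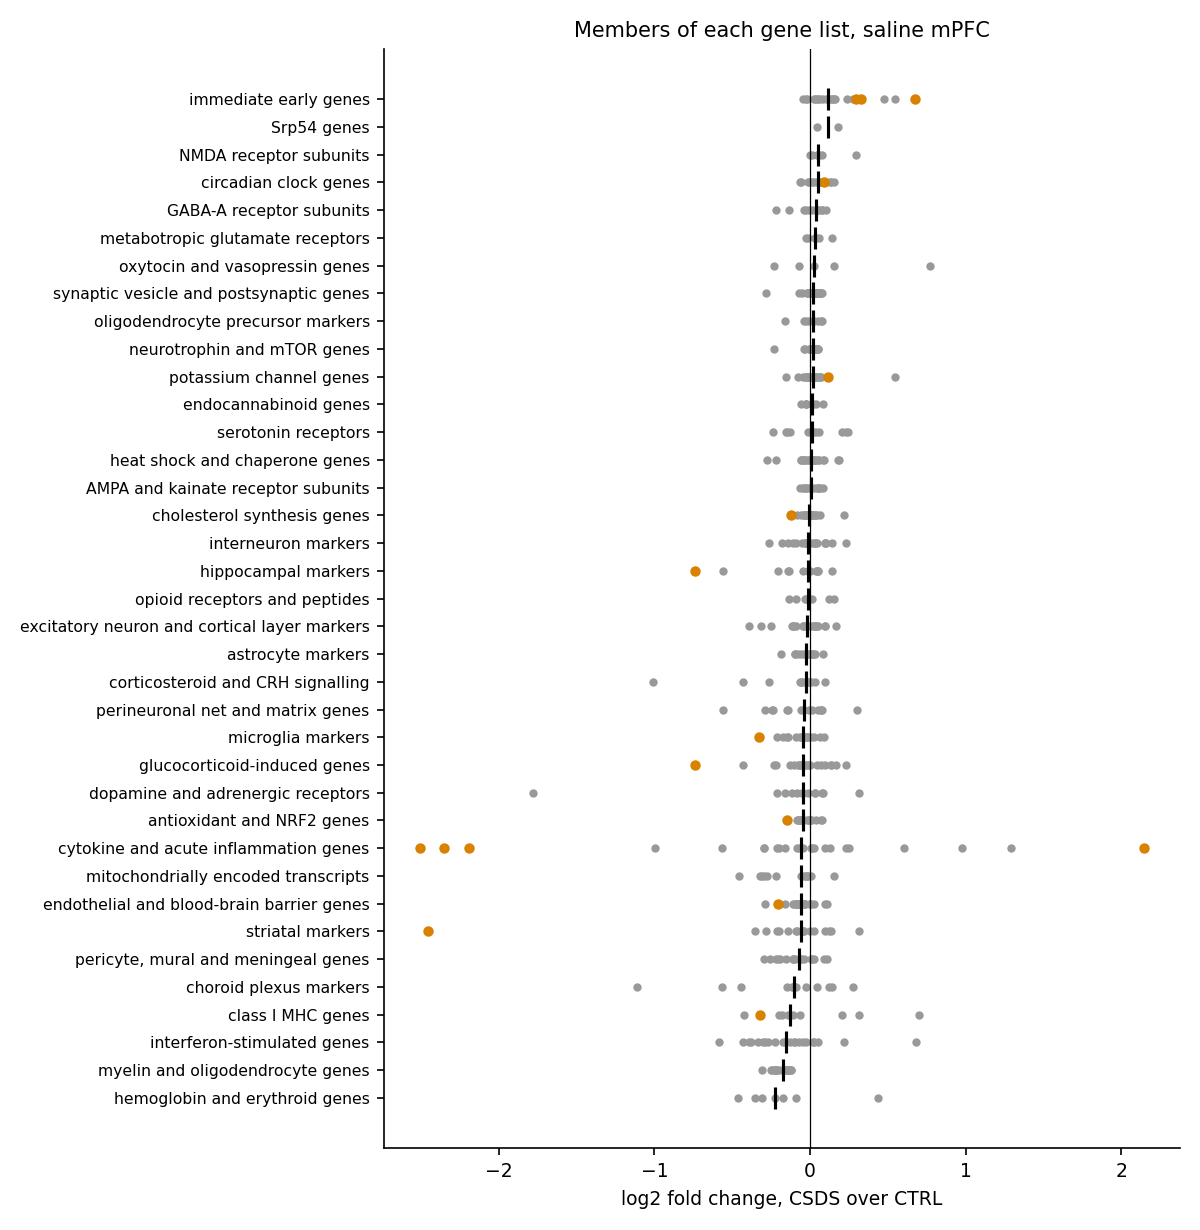
LFC of CSDS over CTRL in saline mPFC (x axis) of every tested member of 37 gene lists (rows, ordered by their median, drawn as a black tick), with unadjusted p under 0.05 in orange. The medians lie between -0.22 for hemoglobin and erythroid genes and 0.12 for immediate early genes, and the widest spread of members is in the cytokine and acute inflammation genes.

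Markers of neuron classes had medians close to 0. Of 22 interneuron markers and 21 tested excitatory neuron and cortical layer markers, 0 had an unadjusted p under 0.05, with median LFCs of -0.01 and -0.02. The interneuron genes Gad1, Pvalb and Sst had LFCs of -0.00 (95% interval -0.12 to 0.11), -0.11 (-0.46 to 0.24) and -0.03 (-0.23 to 0.17), and Slc17a7 had one of -0.02 (-0.14 to 0.10). In the striatal list, 1 of 17 genes was lower. It was Isl1, a transcription factor of striatal and other neurons, with 5 counts over all CSDS libraries and 30 over all CTRL libraries, which is too few to give a level. Without CTRL mouse 27, the highest for Isl1 at 0.773 CPM, 0 of the 17 were lower at an unadjusted p under 0.05. In the hippocampal list the lower gene was Tdo2, tryptophan dioxygenase (LFC -0.74, SE 0.28, unadjusted p = 0.0105), with medians of 0.289 and 0.485 CPM.

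The myelin list shows how far 1 mouse can set a direction. All 20 myelin and oligodendrocyte genes had a negative LFC, with a median of -0.18, and 0 had an unadjusted p under 0.05. Their summed level was between 861 and 6231 CPM in CSDS mice and between 1051.8 and 7746 in CTRL mice, a 9.0-fold range over the 20 mice. The median of the sums was higher in CSDS mice, 1894 CPM, than in CTRL mice, 1647 CPM, so the medians and the LFCs point in opposite directions. Mouse 2 was the highest CSDS mouse and mouse 22 the highest CTRL mouse for each of the 20 genes. Mbp was between 311 and 2412 CPM in CSDS mice (median 749) and between 389 and 2947 in CTRL mice (median 614), with an LFC of -0.16 (SE 0.38, 95% interval -0.93 to 0.61). Mog, a surface protein of myelin, had an LFC of -0.13 (SE 0.40). Without mouse 22, 19 of the 20 LFCs were positive, with a median of 0.14, and without mouse 2 none was positive, with a median of -0.48.

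Transcripts of cells of the vessel wall and the meninges varied in a similar way. The summed level of 19 pericyte, mural and meningeal genes was between 478 and 1228 CPM in CSDS mice (median 646) and between 599 and 1482 in CTRL mice (median 701), and 0 of the 19 had an unadjusted p under 0.05. Acta2, smooth muscle actin, had an LFC of -0.15 (SE 0.42), and Dcn, a proteoglycan of meningeal fibroblasts, one of -0.07 (SE 0.34). Over the 20 libraries and all genes of at least 1 CPM, the first principal component took 21.5% of the variance and had among its leading genes Cnn1, Cd109, Ogn, Lum, Acta2 and Tagln. The second took 10.7% and had among its leading genes the myelin genes Mobp, Opalin, Mal, Mog and Mag. On both components the CSDS and CTRL mice overlapped, between -24.2 and 29.3 against -15.5 and 23.8 on the first and between -20.3 and 15.6 against -15.9 and 30.6 on the second. The part of tissue content in the values of single genes was not tested. Hemoglobin and erythroid genes had the lowest list median, -0.22, with 0 of 7 at an unadjusted p under 0.05. That median was -0.03 without CTRL mouse 24 and -0.52 without CSDS mouse 4. Hba-a1, whose counts are uncertain because of its near-identical copy, had an LFC of -0.46 (SE 0.30, unadjusted p = 0.13), and the highest CTRL value, 197 CPM, was that of mouse 24.

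**Figure D5:**
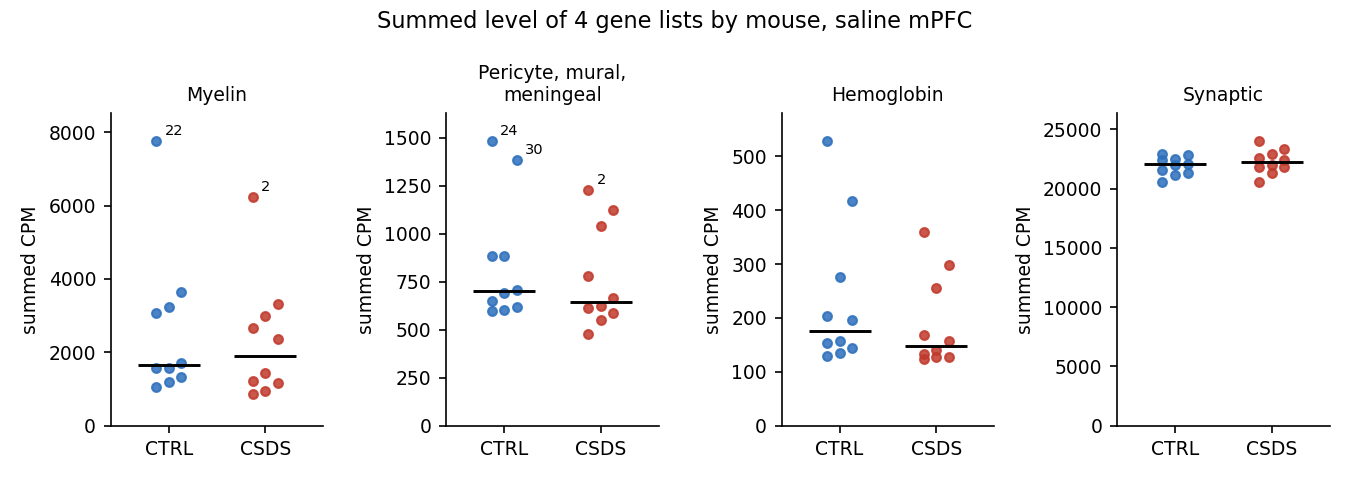
Summed CPM of 4 gene lists (y axes, each from 0) in each CTRL (blue) and CSDS (red) mouse, with the median as a line. The myelin sum runs from 861 to 7746 CPM with mice 2 and 22 at the top, while the synaptic sum stays between 20577 and 23975 CPM.

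Of 23 interferon-stimulated genes, 0 had an unadjusted p under 0.05. Their median LFC was -0.15, and 5 were positive, against 49% of all genes. Without CTRL mouse 24 the median was -0.07, with 9 positive. Of 10 class I MHC genes, 1 was lower at such a p, with 3 of 10 LFCs positive. This was H2-D1, between 28.2 and 72.6 CPM in CSDS mice (median 44.6) and between 41.4 and 81.5 in CTRL mice (median 60), with 8 of 10 CSDS mice below the CTRL median (LFC -0.32, SE 0.15, unadjusted p = 0.0374, and 0.0926 without CTRL mouse 30). With any of several other mice left out, among them CSDS mouse 10 and CTRL mouse 28, 0 class I genes were lower at such a p. Class I genes are alike in sequence, so their counts may be split. Mfsd2a, a lipid transporter of the blood-brain barrier, was the 1 lower gene among 22 endothelial genes (LFC -0.20, SE 0.10, unadjusted p = 0.0406), and without CTRL mouse 29 it had an unadjusted p of 0.166.

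Of 24 cytokine and acute inflammation genes, 3 were lower and 1 was higher at an unadjusted p under 0.05 (1.56% and 1.38% of all genes), all far below 1 CPM in most mice, and 11 of the 24 LFCs were positive. S100a8 and S100a9 encode the subunits of calprotectin, a protein of neutrophils. S100a9 was between 0 and 0.208 CPM in CSDS mice (18 counts in all) and between 0.0387 and 1.39 in CTRL mice (87 counts), with an LFC of -2.36 (SE 0.69, unadjusted p = 0.0014). S100a8 had 7 counts over the CSDS mice and 41 over the CTRL mice (LFC -2.50, SE 0.78, unadjusted p = 0.00252). CTRL mice 24, 29 and 30 were the 3 highest for both genes. The same 3 mice had the highest hemoglobin and erythroid sums of the CTRL group, at 528, 276 and 417 CPM, against at most 204 in the other CTRL mice. CSDS mice 4, 8 and 2 had sums of 360, 298 and 255 CPM, with S100a9 at 0.208, 0.150 and 0 CPM. The part of blood in these values was not tested. Lcn2, an iron-binding acute phase protein, had 45 and 182 counts, with 6.17 CPM in CTRL mouse 29 and at most 1.03 in the other CTRL mice. Its LFC was -2.19 (SE 0.80, unadjusted p = 0.00929), and without that mouse -0.63 with an unadjusted p of 0.419. Ccl2, a monocyte chemokine, went the other way, with 39 counts over 9 of 10 CSDS mice and 7 counts over 4 of 10 CTRL mice (LFC 2.14, SE 0.69, unadjusted p = 0.00322). CSDS mice 18 and 4 had 0.731 and 0.386 CPM, and the other CSDS mice at most 0.201. In the vHipp the Ccl2 medians were 0.0513 CPM in CSDS and 0.0667 CPM in CTRL mice. At so few counts a fitted LFC depends on the prior count and is given as a direction with its error.

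Of 18 microglia markers, 1 was lower at an unadjusted p under 0.05, and 14 of 18 LFCs were negative, with a median of -0.04. It was Aif1 (IBA1), an actin-binding protein of microglia, between 4.62 and 12.4 CPM in CSDS mice (median 9.23) and between 8.47 and 15.6 in CTRL mice (median 10.3). In 8 of 10 CSDS mice it was below the CTRL median (LFC -0.33, SE 0.14, unadjusted p = 0.0218, and 0.059 without CTRL mouse 24). Cx3cr1, the fractalkine receptor, had an LFC of -0.02 (95% interval -0.19 to 0.15), and Tmem119, a marker of resident microglia, one of -0.22 (-0.49 to 0.06). Of 18 astrocyte markers 0 had such a p, and Gfap had an LFC of -0.19 (SE 0.31).

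The stress effect in the mPFC was compared with that in the vHipp of the same 20 mice. In edgeR, 0 of 29227 genes (0.0%) had an adjusted p under 0.05 for the difference between the regions, and 1499 (5.13%) had an unadjusted one. With the mouse as a block, since both regions come from the same animal, the counts were 0 and 1980 (6.77%). In the vHipp, 18 of 18 microglia markers had a positive LFC (47.9% of all genes did), with a median of 0.26, and 6 were higher at an unadjusted p under 0.05 (3.07% of all genes). In the mPFC 4 of 18 were positive, with a median of -0.04, which was 0.0020 without CTRL mouse 24, with 10 positive. Other lists had mostly positive LFCs in the vHipp too, with 13 of 13 mitochondrially encoded transcripts (median 0.31), 17 of 18 astrocyte markers (0.19), 18 of 22 endothelial genes (0.22) and 12 of 13 choroid plexus markers (1.29). In the mPFC 2 of the 13 mitochondrially encoded transcripts were positive, with a median of -0.06, and 0 had an unadjusted p under 0.05. Without CSDS mouse 9, 5 were lower at such a p, and without CSDS mouse 7, 2 were. Of the astrocyte markers 6 of 18 were positive in the mPFC, with a median of -0.02, which was 0.04 without CTRL mouse 30, with 15 positive. Of the endothelial genes 4 of 22 were positive, with a median of -0.06. The choroid plexus gene Ttr was at 654 CPM in the vHipp of CSDS mouse 9 and at 66.1 in that of mouse 13, and at most 7.61 in the other saline mice. The difference between the regions had an unadjusted p under 0.05 for 6 of the 18 microglia markers, and in the paired fit for 15. For Cx3cr1 it was -0.29 (SE 0.12, unadjusted p = 0.0185, in the paired fit 0.00546), and for Tmem119 it was -0.42 (SE 0.18, unadjusted p = 0.022, in the paired fit 0.00441). Of 13 mitochondrially encoded transcripts 9 had such a difference (11 in the paired fit), of 22 endothelial genes 6 (7 in the paired fit), of 18 astrocyte markers 5 (7 in the paired fit) and of 20 myelin genes 0 in either. For the immediate early genes it was 1 of 24 (3 in the paired fit), with median LFCs of 0.12 in the mPFC and 0.08 in the vHipp, where 13 of 24 were positive. Of these 24 genes, 2 were higher, Arc among them, and 1 was lower in the vHipp at an unadjusted p under 0.05. Of all genes, 3.07% were higher there at that p. Arc had LFCs of 0.48 in the mPFC and 0.38 (SE 0.12, unadjusted p = 0.00199) in the vHipp.

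The effect of stress after saline was also compared with that after ketamine in the mPFC, in 10 CTRL and 9 CSDS mice given ketamine. The difference of the effects had an adjusted p under 0.05 in edgeR for 0 of 28993 genes (0.0%), and an unadjusted one for 1539 (5.31%). The difference uses the saline libraries that chose the genes above, so a difference in those genes is in part fixed by that choice and is given as values. Uqcc3, Exosc5 and Dsn1 are examples of opposite signs, with LFCs of -0.17, -0.18 and -0.31 after saline and 0.14, 0.15 and 0.32 after ketamine. For S100a9, another such example, they were -2.36 and 1.55. Not every named gene changed sign, and Egr2, given below, kept its own. The immediate early genes had 16 of 24 positive LFCs after ketamine (50.5% of all genes did), with a median of 0.07, and Egr2 had an LFC of 0.57 (SE 0.30, unadjusted p = 0.0623). For 0 of the 24 was the difference of the effects at an unadjusted p under 0.05. The myelin genes had a median LFC of 0.41 after ketamine, with 20 of 20 positive, and 1 of 20 differences had such a p. The class I gene H2-T22 was high in 3 of the 20 saline mice, CSDS mice 2 and 15 and CTRL mouse 22, at 11.9, 9.77 and 9.40 CPM, and its LFC of 0.70 (SE 0.65) was -0.01 without mouse 2. Gapdh, a reference gene, had an LFC of 0.00 (95% interval -0.13 to 0.14), and Rpl13, a ribosomal protein gene, one of -0.10 (-0.25 to 0.04). Srp54a, a subunit of the signal recognition particle, had an LFC of 0.18 (SE 0.44), and Ttr, a choroid plexus product, one of -1.11 (SE 0.92), with unadjusted p values of 0.68 and 0.231.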

How the data were processed

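RNA of mPFC punches (RNA integrity number of at least 8) was sequenced from poly(A) libraries of a stranded mRNA kit. The authors deposited 1 table of raw read counts per gene, with the summed exon length of each gene. Per the labels' processing notes, reads were converted with bcl2fastq 2.20.0.422. The aligner, the counting tool and its strand setting were not given in the sources used here. Of 55471 gene identifiers, 55144 were named from GENCODE M21 (GRCm38).

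Genes with more than 10 counts in total and a count in more than 3 libraries were kept. All 39 mPFC libraries were fitted in 1 model of 4 groups with edgeR 4.0.16 (TMM, quasi-likelihood test, two-sided, Benjamini-Hochberg adjustment) in R 4.3.3. The study's social box covariate is not in the labels and was not used. CPM used TMM-scaled library sizes. The comparison of regions used the 40 saline libraries. A mouse number marks 1 animal, so regions were also fitted with the mouse as a block. Deviations from the group means correlated with a median r of 0.280 (lowest 0.0596) between regions of the same mouse and of -0.0306 between different mice, across 15727 genes. Alternatives used DESeq2 1.42.0 and limma 3.58.1, other filters, covariates, and each mouse or each of 5 sets of mouse numbers left out. Scripts were tested on simulated data.

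Named genes were the 12 per direction with the smallest unadjusted p and the 8 with the largest LFC at an unadjusted p under 0.05, both of at least 1 CPM, list members at that p, defining members of lists, and a few genes named in earlier results. The comparison and the 37 lists were chosen with earlier results of these data known. Some results of genes under this rule are not reported here.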

Additional observations from a re-analysis of the deposited data

Results flagged for a closer look

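A mouse that stood apart from the others of its group by Dixon's test was found in 25 of 162 groups of values, where chance gives about 1 in 20 if groups are independent and not chosen for their values. These were neither, since some genes were named for such mice and genes of a list vary together, so the number is no measure of an excess. Mouse 15 of the CSDS group was such a mouse for 4 immediate early genes, at 7.71 CPM for Egr2, 22.3 for Fos, 150.6 for Arc and 24.9 for Btg2, and CTRL mouse 28 was for Btg2 at 20.0 CPM. For the myelin genes it was CSDS mouse 2, at 2412 CPM for Mbp and 57.5 for Mog, and CTRL mouse 22, at 2947 and 67.4 CPM. Mouse 2 was also apart for Fkbp5 at 32.3 CPM and mouse 22 for H2-T22 at 9.40 CPM.

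Among the leading genes, CSDS mouse 13 stood apart for Gm15832 at 5.40 CPM, CSDS mouse 18 for Rad51ap1 at 3.03, and CSDS mouse 8 and CTRL mouse 24 for Gm15564 at 182 and 25.4 CPM. CTRL mouse 24 was the lowest of its group for Kif6 at 1.03 CPM, CTRL mouse 39 for Srp54a at 0.310 CPM and CTRL mouse 27 for Slc17a7 at 1273 CPM. Of the low genes, Lcn2 was apart in CSDS mouse 4 at 0.921 and in CTRL mouse 29 at 6.17 CPM, Isl1 in CSDS mouse 9 at 0.151 and in CTRL mouse 27 at 0.773, Ccl2 in CSDS mouse 18 at 0.731 and Ttr in CTRL mouse 24 at 10.8 CPM. CSDS mouse 4 had a total of 34501588 counts, against 23191568 in the next library of its group.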

How the results depend on the processing

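Of 36 other fits of the stress effect, 35 gave 0 genes at an adjusted p under 0.05. The exception, DESeq2 with a term for the 5 sets of mice, gave 3, namely Gm15832 (adjusted p = 0.0432), Cxcl9 (0 counts in CSDS and 13 in CTRL libraries) and Igkv6-13 (0 and 6 counts), the last 2 with counts in 2 CTRL libraries. In edgeR Cxcl9 and Igkv6-13 had unadjusted p values of 0.0211 and 0.0925. The 401 genes higher at an unadjusted p under 0.05 became 261 with DESeq2, 266 with limma-voom and a random effect for each run of 4 mice, 752 without a filter and 164 with filterByExpr, and the 451 lower genes became 685 without a filter and 157 with filterByExpr, which test more and fewer genes. With 1 mouse or 1 set left out, the counts were 317 to 508 higher and 353 to 544 lower, with 0 at an adjusted p under 0.05. With filterByExpr the difference from ketamine had 524 higher and 390 lower genes (834 and 705 as reported), and the difference from the vHipp had 293 and 528 (619 and 880). With the mouse as a replicate block the latter were 900 and 1080. Gene list members higher at that p numbered 6 of 567 as reported, 10 with DESeq2 and the set, 11 with edgeR and the set, 3 with limma-voom, 13 with the myelin and mural sums as covariates, and 3 to 12 with a mouse or set left out. Lower members numbered 11, 7 with filterByExpr, and 8 to 16 with a mouse or set left out. The myelin median was -0.48 without CSDS mouse 2 and turned to 0.14 without CTRL mouse 22. The microglia median was -0.083 without CTRL mouse 29 and turned to 0.0022 with the myelin and mural sums as covariates and 0.0020 without CTRL mouse 24. The cause of these shifts was not tested. For the 50 genes named for an unadjusted p under 0.05, a choice that largely fixes their direction, 0 of 1794 recomputed LFCs changed direction and 1 passed the adjusted threshold. Of the other named genes, H2-T22 turned from 0.70 to -0.01 without CSDS mouse 2. The covariate fit and the fit without mice 2 and 22 were chosen after seeing the data. Depth limits the genes under 1 CPM, where a few counts set the value.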
